A study of Mus musculus with 72 samples.

Results

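Xenobiotic metabolising enzymes of the nose were followed as 45 genes of 4 families: cytochromes P450 of families 1 to 4 (Cyp, 19 genes), UDP-glucuronosyltransferases (Ugt, 2), glutathione S-transferases (Gst, 15) and sulfotransferases (Sult, 9). The members are all genes whose symbol fits the naming pattern of these families and whose mean level over the 72 libraries of the series was at least 1 TPM (transcripts per 1000000, a level scaled for gene length and library). Of 54532 genes in the deposited tables, 135 had such a symbol, namely 75 Cyp, 18 Ugt, 21 Gst and 21 Sult, and 90 of these lay under the threshold. The member nearest to the threshold was Gstm6 at 1.14 TPM, and the closest gene below it was Cyp2d22 at 0.996 TPM.

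These enzymes handle foreign chemicals in successive phases. Cytochromes P450 insert oxygen into lipid-soluble molecules with electrons passed on by P450 reductase. The conjugating enzymes then attach glucuronic acid, glutathione or sulfate, which makes the products easier to excrete. In the olfactory epithelium, the tissue that senses smells, they are known above all from sustentacular cells, which ensheath the sensory neurons, and from the gland cells beneath, and they act on inhaled toxicants and on odorants.

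Total RNA from mouse olfactory epithelium was sequenced after removal of ribosomal RNA, in 72 libraries. Genotype, age in postnatal days (P) and treatment with doxycycline (DOX) define 25 groups. The control group carried the Omp-IRES-tTA allele, in which the promoter of the mature sensory neuron gene Omp drives the transactivator tTA. The ectopicFzd1 group carried Omp-IRES-tTA together with the tetO-Fzd1-IRES-tdTomato transgene, so that the Wnt receptor gene Fzd1 and the marker tdTomato are expressed in mature sensory neurons unless DOX blocks tTA. The Fzd1lacZ group was labelled homozygous for a knockout allele of Fzd1, and its labels name no tTA allele, so that its comparison with control also differs in that allele. Each of these 3 genotypes was sampled at P0, P3, P7, P10 and P14 without DOX, and control and ectopicFzd1 also at P1, P3, P7, P10 and P14 with DOX given from P0. There were 3 libraries in 22 groups and 2 in the other 3 groups (control P3, control P7 and ectopicFzd1 P14, all without DOX). The labels do not say that libraries of a group came from separate animals, so p-values measure only the spread between these samples, which may be partly technical. All 3 ectopicFzd1 libraries with DOX at P3 carry the same identification number in their titles, and 1 number is shared by a DOX library of ectopicFzd1 at P10 and another at P14.

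Gene counts came to between 1314528 and 8788000 per library. A family of 12 predicted repeat genes around Gm10800 took 0.054 to 73.7% of these counts (median 7.53%) and over 25% in 8 libraries, with the most in Fzd1lacZ P10 replicates 3 (73.7%) and 1 (68.2%). Since a library rich in these genes gives every other gene a lower TPM, levels of 1 gene across libraries are given as counts per 1000000 (CPM) after TMM scaling, and TPM is used between genes. Fzd1 was at 20.94 to 44.27 CPM in the 13 control libraries without DOX, at 42.99 to 2122 CPM in the 14 ectopicFzd1 libraries and at 3.477 to 20.31 CPM in the 15 Fzd1lacZ libraries. In 3 libraries the level stood apart from its group: ectopicFzd1 P3 replicate 3 was at 42.99 CPM, within the control range, against at least 205.0 CPM in the other ectopicFzd1 libraries, and control DOX P7 replicate 1 was at 3.448 CPM, below the other DOX controls (20.69 CPM or more). The third, Fzd1lacZ P10 replicate 1, was at 20.31 CPM, just under the lowest control, against at most 9.983 CPM in the other Fzd1lacZ libraries. All are called by their labels here. Without the first 2 of them the 39 members called between P14 and P0, the 4 in ectopicFzd1 against control and the 7 in Fzd1lacZ against control were each called too, and Cyp2f2 was an eighth in Fzd1lacZ. Without the third, 4 members were called in Fzd1lacZ against control. How many of all genes were called without these libraries is not given here, so these counts do not set the members apart. Markers of sustentacular cells summed to 320.3 to 2920 TPM over the libraries at P10 without DOX and to 1688 to 2180 TPM at P0, and markers of mature neurons to 141.2 to 354.5 TPM at P0 and 241.5 to 721.0 TPM at P14, so the labelled tissue was present. Markers of liver, the other tissue rich in these enzymes, summed to at most 12.28 TPM in any library. Only 2 of the 5, Alb and Fgb, had enough counts to be tested, and both were called higher at P14 than at P0 without DOX (log2 fold changes 2.67 and 2.46), from a median sum of 0.34 TPM at P0 to 0.82 TPM at P14. Their part in the members' changes was not tested.

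A few members supplied most of the message. Cyp2a5, a coumarin and nicotine hydroxylase, led with a mean of 846 TPM over all libraries, followed by Cyp2g1, a steroid hydroxylase known for its restriction to olfactory mucosa, with 572 TPM. Ugt2a1, the olfactory glucuronosyltransferase, had a mean level of 451 TPM, and its partner Ugt2a2 a level of 128 TPM. The mu class transferase Gstm1 had a mean of 365 TPM, the naphthalene-activating Cyp2f2 219 TPM and the sulfotransferase Sult1c1 213 TPM. These 7 genes made up 81.3% of the summed mean TPM of all members, and Cyp2a5 with Cyp2g1 alone 41.2%. By family, Cyp held 50.9% of the sum, Gst 22.2%, Ugt 16.8% and Sult the remainder. Next in level came the mu class genes Gstm5 (101 TPM) and Gstm2 (74.2 TPM), Gsta4 (71.2 TPM), which conjugates products of lipid peroxidation, and the catecholamine sulfotransferase Sult1d1 (68.6 TPM). In all, 8 members had a mean above 100 TPM, 14 lay between 10 and 100 TPM and 18 lay under 5 TPM.

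**Figure D1:**
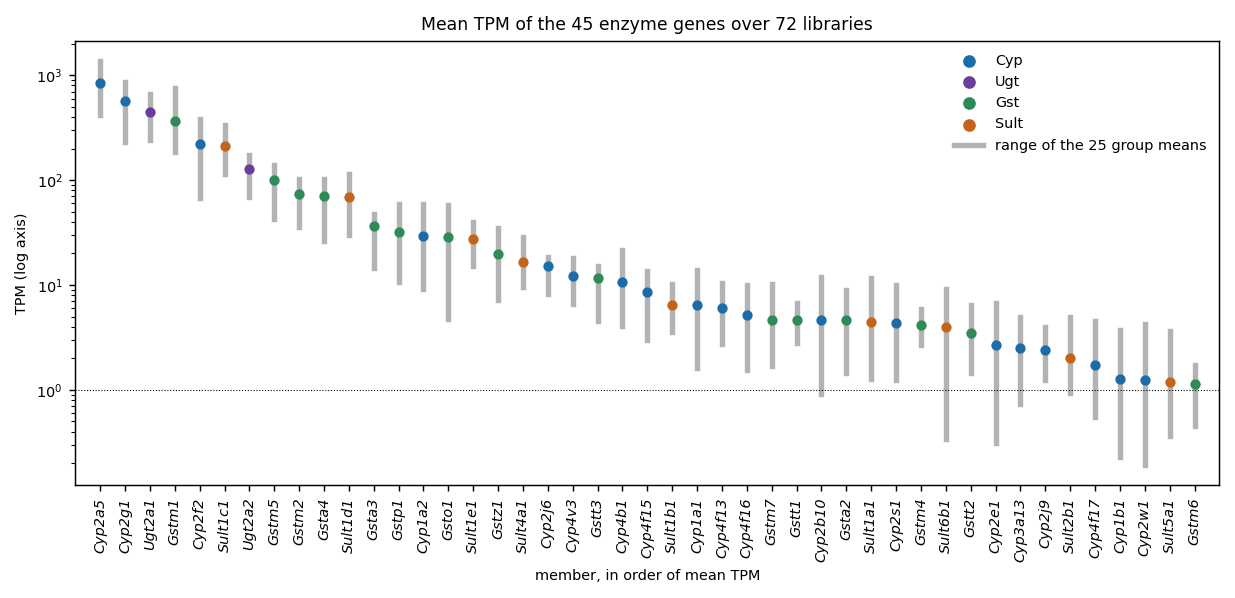
Mean TPM over 72 libraries (points, logarithmic axis) of each of the 45 enzyme genes in falling order, coloured by family, with grey bars for the range of the 25 group means. Cyp2a5 (846 TPM) and Cyp2g1 (572 TPM) stand at the left, and the dotted line marks the threshold of 1 TPM.

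Many members lie side by side in the genome (build mm10, positions from GENCODE M21). On chromosome 7 the Cyp2 cluster holds Cyp2s1 (25802475 to 25816913), Cyp2b10, Cyp2g1 (26808892 to 26821205), Cyp2a5 (26835305 to 26843548) and Cyp2f2 (27119909 to 27133660). Chromosome 5 carries Ugt2a1 and Ugt2a2, which share most of their exons, next to Sult1b1, Sult1d1 and Sult1e1, and chromosome 3 carries the 6 mu class genes between 107895821 and 108044894. Such neighbours share sequence, so their counts are partly uncertain. Of the 50-base stretches in its exons, Cyp2a5 shared 37.0% with other genes (28.1% with Cyp2a4), Gsta2 49.8% (36.0% with Gsta1), Gstp1 33.7%, Gstm1 18.9% and Cyp4f16 17.4%. Ugt2a1 had 30 exonic bases of its own out of 2570 and a mean of 1.6 counts per library, and was the only member too low in counts to be tested. Ugt2a2 had 140 of 2541 bases of its own and a mean of 45.4 counts, so its tests rest on that small stretch while the TPM of both genes is an estimate that divides shared reads.

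Promoter sequence is shown for 6 members on which the results below turn, chosen after their values were seen from among those that rose after birth or were lower in the knockout. Others with such values, Cyp3a13, Cyp4b1 and Gstz1 among them, are not shown. The stretches are from RefSeq (build GRCm38.p6), run 5′ to 3′ along the gene's strand and end at or before the base preceding the first exon, with bases that lie in an annotated exon left out. Capitals mark GCGTG, the core of the xenobiotic response element bound by the aryl hydrocarbon receptor, or its reverse complement CACGC. Cyp1a1 and Cyp1a2 are the classical targets of this receptor and lie head to head on chromosome 9.
Cyp1a1, chr9:57697363-57697612, plus strand: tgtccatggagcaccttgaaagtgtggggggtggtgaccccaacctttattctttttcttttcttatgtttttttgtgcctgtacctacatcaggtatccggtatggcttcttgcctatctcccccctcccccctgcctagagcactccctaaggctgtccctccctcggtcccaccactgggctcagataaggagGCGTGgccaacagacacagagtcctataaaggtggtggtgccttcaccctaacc
Cyp1a2, chr9:57683704-57683905, minus strand: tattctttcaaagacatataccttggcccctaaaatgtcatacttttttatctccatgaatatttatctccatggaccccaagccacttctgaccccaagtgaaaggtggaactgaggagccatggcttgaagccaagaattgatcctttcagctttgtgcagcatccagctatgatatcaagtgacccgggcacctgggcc
Cyp2b10, chr7:25897408-25897619, plus strand: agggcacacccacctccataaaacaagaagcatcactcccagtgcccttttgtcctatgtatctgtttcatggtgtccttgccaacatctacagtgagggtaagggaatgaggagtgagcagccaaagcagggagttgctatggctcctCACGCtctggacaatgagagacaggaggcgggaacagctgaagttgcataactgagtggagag
Cyp2e1, chr7:140763569-140763738, plus strand: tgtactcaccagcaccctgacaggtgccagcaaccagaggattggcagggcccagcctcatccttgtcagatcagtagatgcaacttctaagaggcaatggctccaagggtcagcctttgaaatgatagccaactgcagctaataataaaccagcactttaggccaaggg
Sult1d1, chr5:87569028-87569256, minus strand: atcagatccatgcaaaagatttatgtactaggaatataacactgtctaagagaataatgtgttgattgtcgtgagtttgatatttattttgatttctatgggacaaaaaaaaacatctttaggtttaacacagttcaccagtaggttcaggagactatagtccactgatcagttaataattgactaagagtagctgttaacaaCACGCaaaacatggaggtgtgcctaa
Sult6b1, chr17:78906993-78907242, minus strand: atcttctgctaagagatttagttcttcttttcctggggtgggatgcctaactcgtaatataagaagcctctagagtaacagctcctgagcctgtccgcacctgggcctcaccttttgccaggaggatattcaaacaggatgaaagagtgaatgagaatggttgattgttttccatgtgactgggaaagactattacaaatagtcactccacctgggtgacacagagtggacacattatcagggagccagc
The core stood 54 bases before the start of Cyp1a1, 101 bases before that of Cyp2b10 (with another in the part left out) and 47 bases before that of Sult1d1. These letters were not in the stretches shown for Cyp1a2, Cyp2e1 and Sult6b1. In windows of 250 bases before the start, searched on both strands, GCGTG was in 30.6% of the 49 windows of the 40 members with an entry (14 genes) and in 28.2% of all 32851 windows, so the members' share was close to that of all genes. The antioxidant response core TGACNNNGC was in 6.12% of the members' windows (Gsta3, Gstm5 and Gstm7) against 10.2% of all windows. A match is a description of the letters and not evidence of a bound site.

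Most members were higher at P14 than at P0. Over the 3 genotypes without DOX, 32 of the 44 tested members were called higher and 7 lower (edgeR quasi-likelihood test, adjusted p under 0.05), where 31.6% of all 22144 genes tested were called higher and 27.2% lower. The median log2 fold change of the members was 0.77, against 0.06 over all genes. Of the Cyp genes 11 rose and 6 fell, of the Gst genes 12 rose and 1 fell, 8 of 9 Sult genes rose, and Ugt2a2 rose. The threshold of 1 TPM itself favours change in members that lay under it at 1 age. At P0 4 were under it, Cyp2e1, Sult6b1, Cyp3a13 and Gstm6, all called higher. At P14 4 were under it, of which 3, Cyp2w1, Cyp1b1 and Cyp4f17, were called lower. Of the other 36 members 28 were higher and 4 lower. The members not called were Cyp2f2, Cyp4f13, Gstp1, Gstz1 and Sult5a1, all of which had a lower mean TPM at P14. Gstp1 was at 30.93 to 48.6 TPM at P0 and 14.11 to 29.13 TPM at P14. Its counts scaled for length came to only 0.236 of its TPM, so its test may rest on part of its reads. In bulk tissue, more cells of a type and more RNA per cell cannot be told apart. Sustentacular cell markers moved in the same direction, with 5 of 9 genes higher and none lower (median 0.88), as did all 7 mature neuron markers (median 1.49), and their part in the members' rise was not tested.

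The most abundant P450 genes behaved differently from each other. Cyp2a5 ranged from 915.5 to 1480 CPM at P0 (median 1145, n = 9) and from 2186 to 4382 CPM at P14 (median 4130, n = 8). Every P14 library was above every P0 library, and the log2 fold change was 1.71 (SE 0.16, edgeR adjusted p = 4.11e-14). Its neighbour Cyp2g1 went from 579 to 1143 CPM (median 905.8) to 2404 to 4401 CPM (median 3592), again without overlap, with a log2 fold change of 2.07 (SE 0.16, edgeR adjusted p = 8.53e-17). Cyp2f2, in the same cluster, had 644.4 to 1303 CPM at P0 (median 1047) and 701.8 to 1323 CPM at P14 (median 1099). These ranges overlapped almost fully, and its log2 fold change of 0.08 was not called (edgeR adjusted p = 0.642). In between it was lower, with medians of 690.2 CPM at P3, 697.1 CPM at P7 and 846.1 CPM at P10. The step from P0 to P3 was called lower (log2 fold change -0.50, edgeR adjusted p = 0.00766). The rise of 0.53 from P10 to P14 was not called (edgeR adjusted p = 0.057).

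Larger changes were found in less abundant P450 genes. Cyp2e1, the ethanol and solvent oxidase, was at 0.1736 to 1.884 CPM at P0 (median 1.23) and 5.666 to 29.21 CPM at P14 (median 22.29). The groups did not overlap, and its log2 fold change was 3.82 (SE 0.25, edgeR adjusted p = 4.03e-19). Its median was 0.41 TPM at P0 and 4.325 TPM at P14, so it reached the mean of 1 TPM that defines a member through later ages. Cyp1a2, which oxidises caffeine and aromatic amines, rose from 22.27 to 45.1 CPM (median 30.55) to 88.81 to 294.6 CPM (median 226.6), a log2 fold change of 2.73 (SE 0.14, edgeR adjusted p = 2.66e-24). Cyp3a13, a member of the broad-spectrum CYP3A subfamily, rose from 2.967 to 7.805 CPM (median 4.962) to 16.68 to 41.87 CPM (median 32.51), a log2 fold change of 2.55 (SE 0.19, edgeR adjusted p = 1.50e-17). For both genes every P14 library lay above every P0 library. The mean of Cyp3a13 at P0 was 0.997 TPM, just under the threshold. Cyp1a1, which oxidises polycyclic aromatic hydrocarbons, had a smaller log2 fold change of 1.18 and overlapping ranges of 8.159 to 31.86 CPM at P0 and 20.9 to 63.96 CPM at P14.

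The P450 genes that fell were all of modest level. Cyp2w1, known from fetal gut, fell from 6.074 to 11.8 CPM at P0 (median 7.372) to 0 to 2.053 CPM at P14 (median 1.315), a log2 fold change of -2.64 (SE 0.27, edgeR adjusted p = 1.75e-12). Cyp1b1, which oxidises estradiol and polycyclic hydrocarbons, fell from 13.78 to 36.46 CPM (median 27.78) to 2.701 to 8.277 CPM (median 4.733), a log2 fold change of -2.31 (SE 0.25, edgeR adjusted p = 2.28e-11). All P14 libraries lay below all P0 libraries for both. Their means at P14 were 0.375 and 0.353 TPM, so both became members through younger ages. Cyp1a1, Cyp1a2 and Cyp1b1 form 1 family, of which Cyp1a1 and Cyp1a2 rose while Cyp1b1 fell. Cyp2s1 fell from 25.03 to 49.65 CPM to 14.6 to 21.93 CPM without overlap (log2 fold change -1.02, SE 0.14), and the fatty acid hydroxylase genes Cyp4f17 and Cyp4f16 had log2 fold changes of -0.68 and -0.42. Cyp2b10, a phenobarbital-inducible P450 (log2 fold change -0.55, edgeR adjusted p = 0.0376), and Gsto1 (-0.54, edgeR adjusted p = 0.0302) were called lower too. Of the fits that left out 1 library at P0 or P14, each call was lost in 9 and kept in 8. Where lost, the log2 fold changes were -0.53 to -0.45 and -0.58 to -0.44.

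Among the conjugating enzymes the rise in CPM was broad and mostly of smaller size. Not all of it was seen in mean TPM. Gsta3, Gsta4 (75.8 TPM at P0 and 58.3 TPM at P14), Gstm7, Gstt2, Gstt3, Sult1a1 and Sult2b1 were called higher but had less TPM at P14. The other conjugating enzymes called higher had more TPM at P14. Ugt2a2 was at 3.557 to 12.09 CPM at P0 (median 7.157) and 9.434 to 15.23 CPM at P14 (median 12.56), ranges that overlapped, with a log2 fold change of 0.74 (edgeR adjusted p = 0.000101). Ugt2a1, tested only on the TPM scale, ranged from 171.3 to 420.5 TPM at P0 and from 450.2 to 665.2 TPM at P14, and log2(TPM + 1) differed by 0.94 (SE 0.21, limma adjusted p = 0.000142). Gstm1 rose from 288.0 to 623 CPM (median 397.3) to 640.4 to 830.2 CPM (median 752.7), with a log2 fold change of 0.85. Gstm2 rose from 62.67 to 95.21 CPM to 145.0 to 215.5 CPM (1.18), and Gstm5 from 78.81 to 131.6 CPM to 152.7 to 242.3 CPM (0.79). In all 3 mu class genes the P14 libraries lay above the P0 libraries. The alpha class gene Gsta2 had the largest log2 fold change of the Gst family, 1.83, from 2.083 to 3.956 CPM to 6.095 to 14.15 CPM.

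Sulfotransferases had the highest family median, 1.26 on the log2 scale, against 0.77 for Cyp and 0.62 for Gst. Sult6b1 went from 0.8475 to 3.374 CPM at P0 (median 1.082) to 7.99 to 25.24 CPM at P14 (median 19.96). Its log2 fold change was 3.57 (SE 0.21, edgeR adjusted p = 5.47e-21). Like Cyp2e1 it had a median under 1 TPM at P0 (0.63 TPM, against 6.435 TPM at P14) and became a member through later ages. Sult1d1 went from 91.59 to 149.9 CPM (median 126.8) to 404.5 to 705.4 CPM (median 528.7), a log2 fold change of 2.15 (SE 0.13, edgeR adjusted p = 2.16e-20). Sult1c1, the most abundant gene of the family, went from 272.7 to 425.5 CPM (median 304.1) to 773.2 to 1417 CPM (median 868.7), and was higher too (edgeR adjusted p = 8.27e-13). For these 3 genes all P14 libraries were above all P0 libraries. The estrogen sulfotransferase Sult1e1 rose by 0.76 on the log2 scale with overlapping ranges (37.01 to 64.47 and 63.92 to 87.94 CPM).

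**Figure D2:**
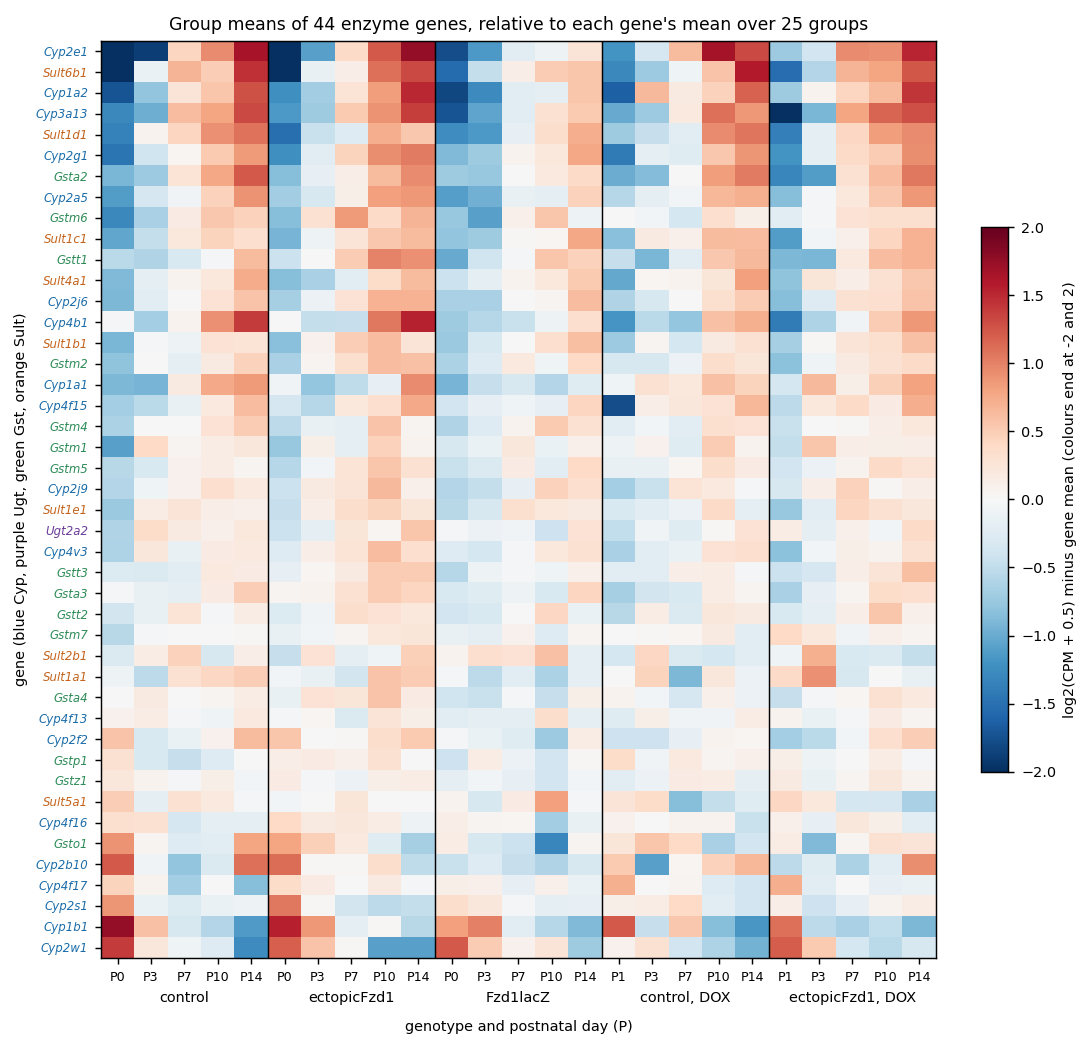
Group means of the 44 tested enzyme genes as log2(CPM + 0.5) relative to each gene's mean over the 25 groups, with genes ordered by their P14 against P0 change and columns by genotype, DOX and postnatal day. Red (higher) fills the right of each block in the upper rows, from Cyp2e1 (log2 fold change 3.82) down, and the left of each block in the lowest rows, Cyp1b1 and Cyp2w1 (-2.64).

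The split between higher and lower members depended on the scale. On the TPM scale, tested with limma on log2(TPM + 1), 17 members were higher and 12 lower at P14, while the median of all genes was -0.40 instead of 0.06. Measured against that median, a member with no change in TPM stood above the typical gene. With DOX the same scale gave 14 higher and 15 lower members, with a median of all genes of -0.59. The shares of all genes called on this scale are not given here, so these counts do not set the members apart. A second limit is that age and the series of identification numbers in the titles, whose meaning the labels do not give, went together. In the Fzd1lacZ libraries, where P0 and P3 carry 1 series, P10 and P14 another and only P7 holds both, a fit with the series as a covariate called 3 members higher and none lower, and 0.593% and 0.0818% of all genes (edgeR). In the DOX controls, P1 and P14 carry the same series, and within it 27 members were higher and 6 lower at P14, where 31.2% and 31.8% of all genes were.

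With DOX, in libraries separate from those above, more members were higher than lower at P14 as well. In the mean of control and ectopicFzd1 with DOX, 28 members were higher at P14 than at P1 and 5 lower, against 21.8% and 26.6% of all genes, and the members' median log2 fold change was 0.61 against 0.03 over all genes. Of the members higher without DOX 26 were also higher with DOX, which is 81.2% of the 32 and 92.9% of the 28. Another 6 were called higher only without DOX and 2 only with it, and 4 were called lower in both. Cyp2b10 was the only member called in opposite directions: it fell by 0.55 without DOX and rose by 0.82 with DOX (edgeR adjusted p = 0.00566), where its levels were 5.776 to 24.55 CPM at P1 and 19.02 to 43.58 CPM at P14. Cyp2f2, not called without DOX, was higher with DOX (0.81, edgeR adjusted p = 4.63e-05), with 339.5 to 623 CPM at P1 and 781.6 to 1228 CPM at P14. The youngest age differs between both series (P0 and P1), and these differences between them were not tested. Within each of the 5 combinations of genotype and DOX taken alone, 17 members were called higher every time and 2 lower, Cyp2w1 and Cyp1b1, against 3.87% and 4.74% of all genes. These 2 lay under the threshold of 1 TPM at P14 without DOX. Cyp2e1, Sult6b1 and Cyp3a13, among the 17, lay under it at P0.

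**Figure D3:**
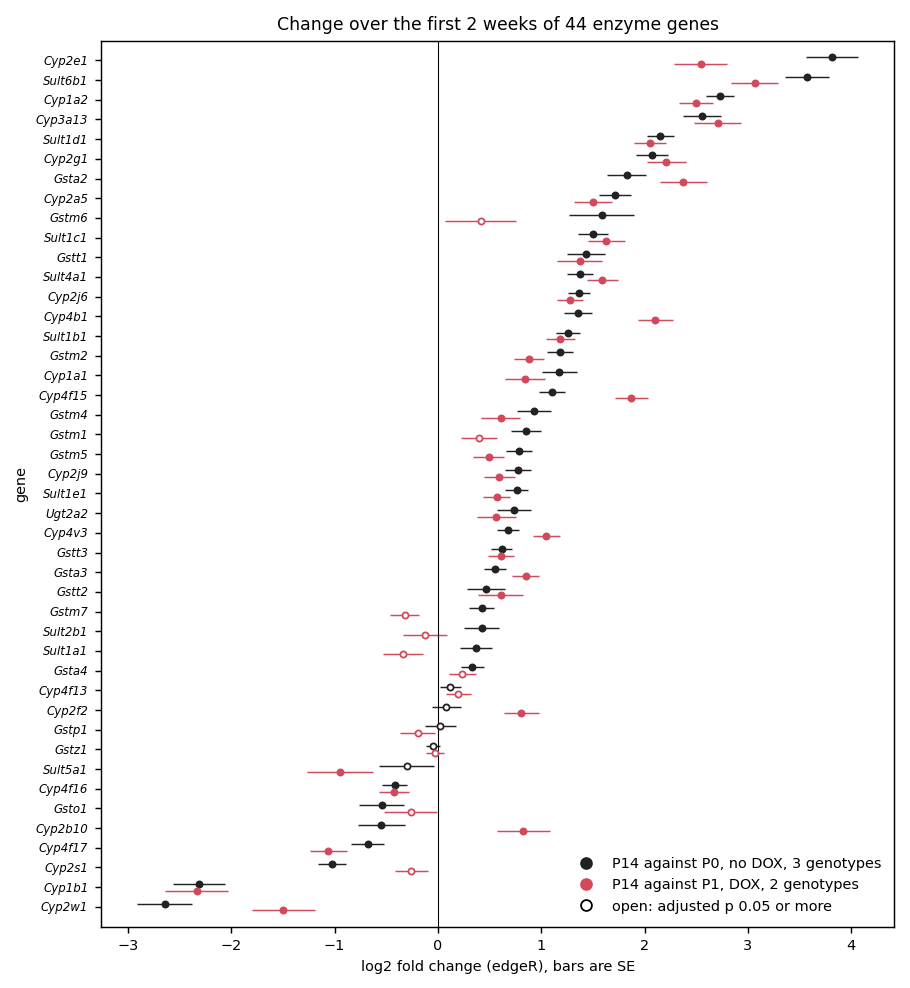
Log2 fold changes of the 44 tested enzyme genes with SE bars, P14 against P0 without DOX (black) and P14 against P1 with DOX (red), with open points where the adjusted p was 0.05 or more. Most points of both colours lie to the right of 0, among them Cyp2e1 (3.82 without and 2.54 with DOX), and Cyp2b10 has filled points on both sides (-0.55 and 0.82).

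In the fit of all libraries, most of the calls between neighbouring ages fell in the first postnatal week, for the members as for all genes. From P0 to P3, 17 members rose and 5 fell (19.1% of all genes were called in either direction), and from P3 to P7, 15 rose and 1 fell (24.2%). Only 2 members were called from P7 to P10 (2.33%), and 1 from P10 to P14 (0.524%). The members with the smallest p differed between the steps. From P0 to P3 they were Sult6b1 (log2 fold change 2.13), Sult1d1 (0.86), Sult1b1 (0.77) and Cyp2s1 (-0.73), and from P3 to P7 Cyp1a2 (1.02), Cyp2e1 (1.80), Cyp3a13 (1.32) and Cyp1b1 (-0.99). Cyp4b1, which activates the lung toxicant ipomeanol, rose later, by 0.89 from P7 to P10 (SE 0.15, edgeR adjusted p = 0.000232). Sult1d1, called higher at both earlier steps, rose again from P7 to P10 (0.68, edgeR adjusted p = 0.00176). Cyp1a2 rose again from P10 to P14 (0.65, edgeR adjusted p = 0.00588).

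The course of single genes shows these stages. Median levels of Cyp2e1 without DOX were 1.23, 2.828, 9.519, 13.02 and 22.29 CPM at the 5 ages in order, while Sult6b1 went from 1.082 CPM at P0 to 6.187 already at P3 and then to 9.209, 11.72 and 19.96. Of the 32 members that rose, the fitted midpoint of the log2 change was first reached at P3 in 11, at P7 in 16 and at P10 in 5. Of the 7 that fell, 3 reached it at P3 and 4 at P7. Without the 8 libraries in which the Gm10800 family exceeded 25% of counts, 10 members were called from P3 to P7, 12 from P7 to P10 and none from P10 to P14 (edgeR), so the share of the change assigned to the later steps rests on those libraries. How many of all genes were called in these fits is not given here.

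Taken by genotype, 34 members changed between P0 and P14 in control (45.7% of all genes), 30 in ectopicFzd1 (32.0%) and 26 in Fzd1lacZ (22.5%), of which 20 rose and 2 fell in all 3, against 5.18% and 6.75% of all genes. The difference of these changes was tested directly. Between ectopicFzd1 and control no member differed (edgeR, 0.0858% of all genes were called and 3 members had an unadjusted p under 0.05). Between Fzd1lacZ and control 2 members differed (3.55% of all genes), and both rose less in Fzd1lacZ.

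Cyp2e1 was at 1.271, 1.082 and 0.1736 CPM in the control libraries at P0 and at 22.07, 23.3 and 26.42 CPM at P14. In Fzd1lacZ it was at 1.78, 1.884 and 1.687 CPM at P0 and at 11.75, 5.666 and 9.01 CPM at P14. The knockout libraries thus started above the controls and ended below them, without overlap at either age. The log2 change was 4.73 in control and 2.20 in Fzd1lacZ, a difference of -2.54 (SE 0.72, edgeR adjusted p = 0.0373). Sult6b1 was at 0.8475, 1.082 and 0.868 CPM in control at P0 and 21.55, 20.94 and 25.24 CPM at P14, against 0.9889, 2.826 and 3.374 CPM and 15.24, 7.99 and 12.51 CPM in Fzd1lacZ. The groups overlapped at P0 and not at P14, and the log2 changes of 4.56 and 2.30 differed by -2.26 (SE 0.59, edgeR adjusted p = 0.0250). In the fits without 1 of these libraries, the call of Cyp2e1 was lost in 9 and kept in 3. That of Sult6b1 was lost in 6 and kept in 6. Where lost, the edgeR adjusted p ran up to 0.0956 and 0.0966, while the sign stayed negative (-2.71 to -2.12 and -2.38 to -1.95). Counts of these genes at P0 were low, and precision is limited accordingly.

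Averaged over the 5 ages, 7 members were lower in Fzd1lacZ than in control and none higher, where 2.85% of all genes were called. The median of the members was -0.06, against 0.02 over all genes. They were Cyp2b10, Cyp4b1, Cyp3a13, Cyp1a1, Cyp1a2, Sult1d1 and Gstz1. At P14 Cyp4b1 was at 102.1, 96.24 and 91.28 CPM in control, at 36.14, 54.91 and 46.38 CPM in Fzd1lacZ and at 114.2 and 99.01 CPM in ectopicFzd1, so the knockout libraries lay below all others. Its averaged log2 fold change was -0.62 (SE 0.11, edgeR adjusted p = 0.000181). At P3 and P7 the Cyp4b1 levels of Fzd1lacZ (20.91 to 37.42 CPM) and control (19.41 to 40.07 CPM) overlapped.

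Sult1d1 was lower in Fzd1lacZ by 0.53 on the log2 scale (log2 fold change -0.53, SE 0.10, edgeR adjusted p = 0.00047). Its control libraries were at 369.6 and 282.7 CPM at P3, 412.5 and 426.0 CPM at P7, 664.0, 523.9 and 579.0 CPM at P10 and 633.3, 643.6 and 705.4 CPM at P14. The Fzd1lacZ libraries were at 156.2, 141.3 and 122.2 CPM, at 221.6, 301.5 and 308.0 CPM, at 385.9, 477.4 and 335.9 CPM and at 523.7, 533.6 and 483.9 CPM. At each of these 4 ages all knockout libraries were below all controls, whereas at P0 the ranges overlapped (116.1 to 149.9 CPM against 105.5 to 133.6 CPM).

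The paired family 1 genes were lower on average as well. Cyp1a2 was at 219.9, 233.3 and 253.8 CPM in control at P14 and at 88.81, 183.8 and 154.7 CPM in Fzd1lacZ, with an averaged log2 fold change of -0.46 (SE 0.11, edgeR adjusted p = 0.00466). Cyp1a1 was at 50.37, 58.59 and 47.72 CPM in control at P10 and 47.98, 60.44 and 58.02 CPM at P14, against 11.61, 22.53 and 26.29 CPM and 20.9, 24.41 and 31.87 CPM in Fzd1lacZ. Neither age had overlapping groups, and the averaged log2 fold change was -0.48 (SE 0.14, edgeR adjusted p = 0.0353). At P3 the order was the opposite, with 21.95, 17.73 and 26.41 CPM of Cyp1a1 in Fzd1lacZ above 14.44 and 17.19 CPM in control, and at P0 and P7 the groups overlapped. Cyp3a13 was at 31.05, 41.87 and 33.96 CPM in control and 25.69, 18.3 and 16.68 CPM in Fzd1lacZ at P14 (averaged log2 fold change -0.58, SE 0.15, edgeR adjusted p = 0.0210). Gstz1, which also isomerises maleylacetoacetate in tyrosine breakdown, differed least, by -0.21 (SE 0.06, edgeR adjusted p = 0.0281).

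Cyp2b10 had the largest averaged fold change in Fzd1lacZ, -0.66 (SE 0.20, edgeR adjusted p = 0.0471). It was at 31.92, 39.12 and 40.45 CPM in control at P0 and at 13.05, 11.07 and 9.842 CPM in Fzd1lacZ, and at P14 at 45.67, 27.69 and 28.54 CPM against 10.88, 14.53 and 11.51 CPM. The groups did not overlap at either age, but they did at the 3 ages between. At P3 it was at 14.34, 13.03 and 11.4 CPM in Fzd1lacZ, inside the control range of 7.762 to 22.02 CPM, and at P7 at 17.88, 7.986 and 7.84 CPM against 6.543 and 11.04 CPM, a log2 fold change of 0.49 that was not called. At P10 it was at 10.16, 8.551 and 11.68 CPM against 17.74, 15.85 and 4.338 CPM. The averaged call was lost in 21 and kept in 7 of the fits without 1 library of these 2 genotypes (log2 fold change -0.73 to -0.48 where lost). Cyp1a1 lost its call in 15 of these fits and kept it in 13, and Cyp3a13 lost it in 2 and kept it in 26. Gstz1 lost it in 7 (edgeR adjusted p up to 0.141, without Fzd1lacZ P10 replicate 3) and kept it in 21. The calls of Cyp4b1, Sult1d1 and Cyp1a2 held in every such fit. Over these fits the number of called members ran from 3, without control P7 replicate 1, to 11, without Fzd1lacZ P10 replicate 2. It was 4 without each of Fzd1lacZ P7 replicate 3, P10 replicates 1 and 3 and P14 replicate 1, and without control P10 replicate 2. The shares of all genes called in these fits are not given here.

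Other measures moved with the knockout comparison. Markers of glands and ducts were lower in Fzd1lacZ for 3 of 9 genes and higher for none, led by the odorant-binding protein genes Obp2b (log2 fold change -1.63) and Obp2a (-1.45) and the lipocalin Lcn3 (-1.23). Their summed level at P14 was 1225 to 2492 TPM in Fzd1lacZ and 2426 to 3478 TPM in control, and at P0 10170 to 14350 TPM and 20950 to 34630 TPM. Such sums are lowered by the Gm10800 family. It took 9.27 to 13.4% of counts in Fzd1lacZ and 0.054 to 0.677% in control at P0. At P14 it took 5.03 to 34.2% and 7.35 to 15.2%. None of the 9 sustentacular cell markers was called (median 0.02). Cartilage and bone markers were higher for 2 of 5 genes and lower for none (median 0.44), namely Acan (0.46) and Col9a2 (0.44). The part of these markers in the members' difference was not tested. Control and Fzd1lacZ libraries carry a common series of identification numbers only at P14, and within it 4 members were lower. In Fzd1lacZ P10, replicates 1 and 3, rich in Gm10800 counts, had 874.8 and 1703 CPM of Cyp2a5 against 3456 CPM in replicate 2. Without the 8 libraries above 25%, 7 members were lower, Cyp4b1 by -0.51 and Sult1d1 by -0.54, but Cyp1a1 (edgeR adjusted p = 0.0811) and Gstz1 (edgeR adjusted p = 0.104) were not called. With TPM in place of CPM, 23 members were lower and none higher (limma), and the median over all genes was -0.19. Shares of all genes are not given for these alternative fits, so their counts do not set the members apart from other genes.

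**Figure D4:**
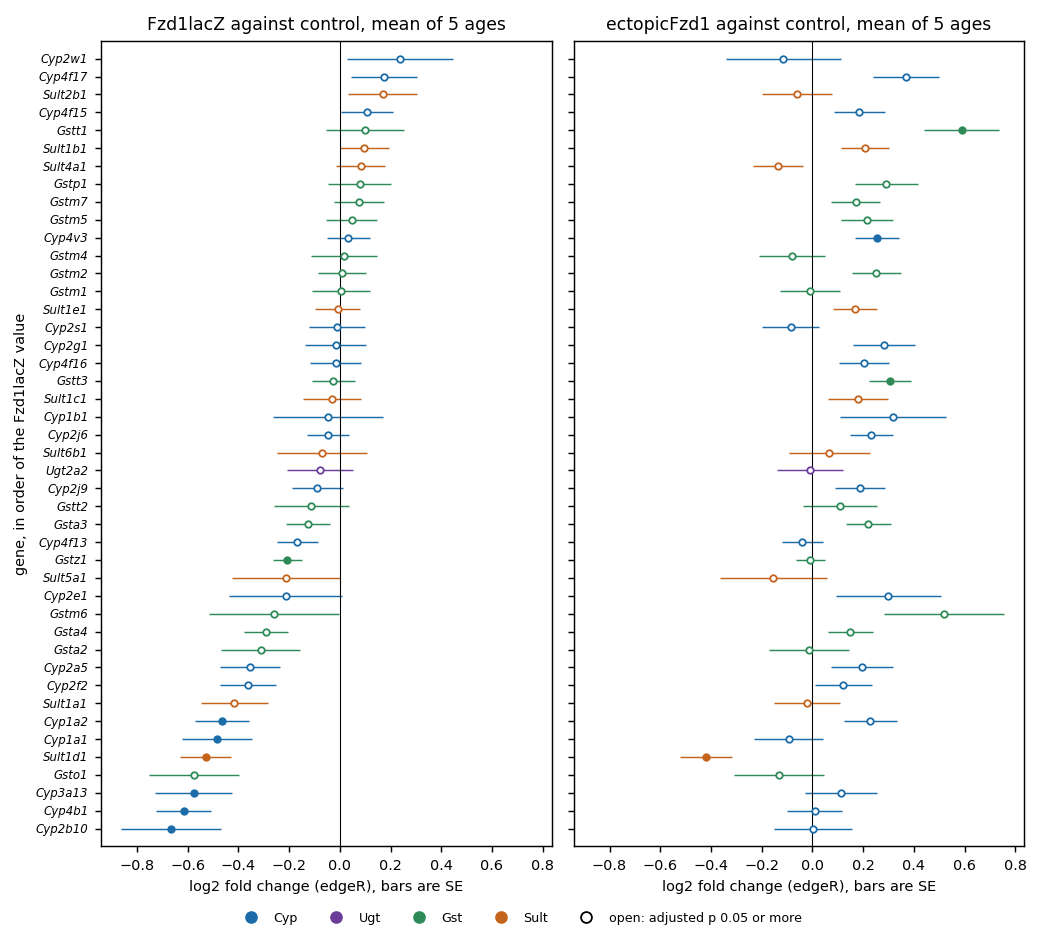
Averaged log2 fold changes over 5 ages with SE bars for the 44 tested enzyme genes, Fzd1lacZ against control (left) and ectopicFzd1 against control without DOX (right), in the order of the left panel and with open points where the adjusted p was 0.05 or more. The 7 filled points on the left all lie below 0, from Cyp2b10 (-0.66) to Gstz1 (-0.21). On the right Gstt1 (0.59), Gstt3 (0.31) and Cyp4v3 (0.26) lie above 0 and Sult1d1 (-0.42) below. Both panels share the control libraries.

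In ectopicFzd1 without DOX 4 members differed from control on average over the ages, 3 higher and 1 lower, where 9.19% of all genes were called. The median of the members was 0.16, against -0.01 over all genes. In the same comparison 6 of the 7 mature neuron markers were lower and none higher (median -0.78), while 1 of 9 sustentacular cell markers was higher and none lower (median 0.22). The mature neuron markers summed to 241.5 to 244.3 TPM in ectopicFzd1 at P14 and to 466.0 to 721.0 TPM in control. The Gm10800 family, which lowers the TPM of other genes, took 13.2 to 20.6% and 7.35 to 15.2% of counts in these groups. The part of these markers in the members' difference was not tested. The theta class transferase Gstt1, which conjugates small halogenated solvents, was at 8.553, 5.17 and 13.02 CPM in control at P10 and 12.3, 19.74 and 23.89 CPM in ectopicFzd1, ranges that overlapped at this age. At P7 and P14 all ectopicFzd1 libraries (10.9 to 18.87 CPM) were above the controls of the same age (6.27 and 8.354 CPM, and 14.39 to 14.63 CPM). Its averaged log2 fold change was 0.59 (SE 0.15, edgeR adjusted p = 0.00389). Its neighbour in class Gstt3 was higher by 0.31 (SE 0.08, edgeR adjusted p = 0.00976), with 24.38, 31.07 and 26.65 CPM in control and 36.75 and 33.59 CPM in ectopicFzd1 at P14. The fatty acid hydroxylase gene Cyp4v3 was higher by 0.26 (SE 0.09, edgeR adjusted p = 0.0488). This call was lost in 21 and kept in 6 of the fits without 1 library of these groups (0.23 to 0.27 where lost). On the TPM scale (median of all genes -0.12) only 1 member was called, lower (limma).

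Sult1d1 was the member lower in ectopicFzd1, with an averaged log2 fold change of -0.42 (SE 0.10, edgeR adjusted p = 0.00315). The ectopicFzd1 libraries were at 280.8, 125.2 and 280.2 CPM at P3, 289.2, 198.3 and 291.9 CPM at P7, 419.8, 590.0 and 538.5 CPM at P10 and 507.2 and 404.5 CPM at P14. They lay below the control values given above at P3, P7 and P14 and overlapped them at P10. The comparisons of ectopicFzd1 and of Fzd1lacZ share their control libraries, so the lower Sult1d1 in both is not a repeated observation.

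With DOX, which silences the transgene, no member differed between ectopicFzd1 and control (edgeR, 0.826% of all genes were called and 7 members had an unadjusted p under 0.05). Sult1d1 was then at 249.8, 268.3 and 310.3 CPM in ectopicFzd1 and 191.5, 287.1 and 201.5 CPM in control at P3, and at 488.9, 335.1 and 428.5 CPM against 347.7, 219.1 and 236.1 CPM at P7, with overlap at both ages. At P1 all ectopicFzd1 libraries, at 83.37, 121.6 and 156.6 CPM, lay below the controls at 208.7, 187.8 and 175.9 CPM. At P10 (518.6 to 604.8 CPM against 557.3 to 633.4 CPM) and P14 (470.3 to 710.2 CPM against 584.0 to 738.7 CPM) the groups overlapped. The averaged log2 fold change of 0.01 thus joins ages with opposite signs. The effect without DOX minus that with DOX, over P3, P7, P10 and P14, was called for 1 member (2.39% of all genes), Sult1d1, at -0.66 (SE 0.16, edgeR adjusted p = 0.00844). P1 and P0 have no counterpart in the other series and do not enter it. The difference was called in every fit without 1 library. With DOX, control and ectopicFzd1 libraries carry no common series of identification numbers at P3, P7, P10 or P14. Without DOX they carry none at P14. The difference therefore cannot be told apart from that of the series. DOX itself, compared within control over the same ages, changed no member (edgeR, 0.867% of all genes were called and 8 members had an unadjusted p under 0.05), although Sult1d1 was lower by -0.29 (edgeR adjusted p = 0.233).

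**Figure D5:**
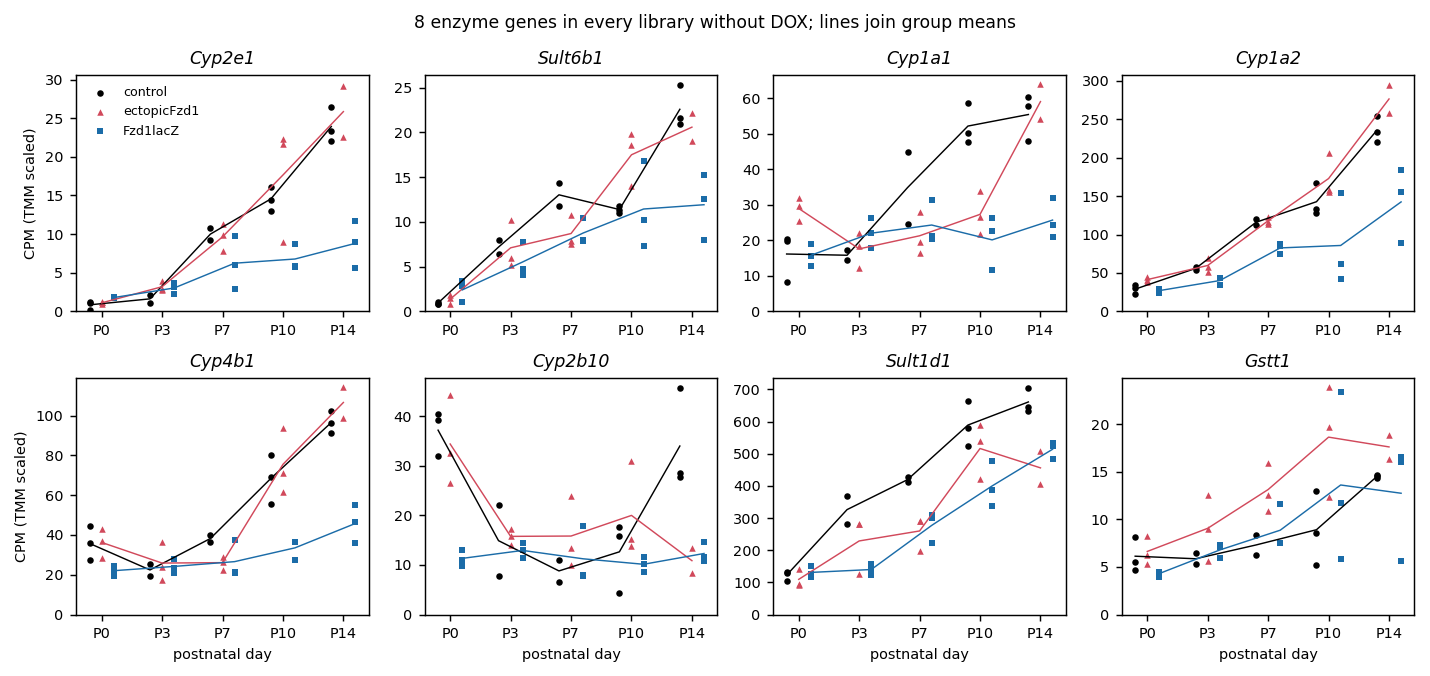
CPM of 8 enzyme genes in every library without DOX, by postnatal day, for control (black circles), ectopicFzd1 (red triangles) and Fzd1lacZ (blue squares), with lines through group means. At P14 the Fzd1lacZ libraries lie below all control libraries for Cyp2e1 (at most 11.75 CPM), Cyp1a1, Cyp4b1 (at most 54.91 CPM) and Cyp2b10, and Cyp2b10 is also low in ectopicFzd1 (8.277 and 13.44 CPM).

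At single ages few members were called. In Fzd1lacZ against control these were 3 at P0 (7.73% of all genes), 1 at P3 (1.08%), none at P7 (0.0858%, with 3 members at an unadjusted p under 0.05), none at P10 (0.285%, with 11) and 4 at P14 (0.714%), all by edgeR. At P0 they were Cyp2b10 (log2 fold change -1.70), Gstz1 (-0.41) and Gstm1, which was higher in Fzd1lacZ (623, 513.4 and 491.2 CPM) than in control (364.4, 298.5 and 288.0 CPM), by 0.78. At P3 it was Sult1d1 (-1.22, edgeR adjusted p = 0.00227). At P14 they were Cyp2e1 (-1.53, edgeR adjusted p = 0.00644), Cyp4b1 (-1.05, edgeR adjusted p = 0.00459), Cyp2b10 (-1.44, edgeR adjusted p = 0.0432) and Cyp1a1 (-1.08, edgeR adjusted p = 0.0372). The calls of Cyp1a1 and Cyp2b10 at P14 and of Gstm1 at P0 were each lost in all 6 fits without 1 library of the groups compared. Gstz1 at P0 lost its call in 4 such fits and kept it in 2. Cyp2e1 at P14 lost it in 2 (-1.45 and -1.25) and kept it in 4. Sult1d1 at P3 lost it in 1, without control P3 replicate 1 (-1.02), and kept it in 4.

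In ectopicFzd1 against control no member was called at P0 (0.754% of all genes, with 4 members at an unadjusted p under 0.05), P3 (0.569%, with 3) or P7 (0.704%, with 11), again by edgeR. At P10 2 were called (10.3%): Gstt1 at 1.05 and Cyp1a1 at -0.92, with 21.72, 33.8 and 26.5 CPM of Cyp1a1 against the control values above and no overlap. At P14 Cyp2b10 was the only call (1.76% of all genes), at -1.64 (edgeR adjusted p = 0.0422), with 8.277 and 13.44 CPM in ectopicFzd1. The 2 calls at P10 were each lost in 4 and kept in 2 of the fits without 1 library of the groups compared, with edgeR adjusted p up to 0.156 and 0.107. The call of Cyp2b10 at P14 was lost in 4 and kept in 1 such fit (-2.04 to -1.34 where lost). F tests over the 5 ages asked whether a genotype effect differed among them. No member passed for ectopicFzd1 (edgeR, 0.357% of all genes, with 3 members at an unadjusted p under 0.05). For Fzd1lacZ 2 members passed (2.77% of all genes), Cyp2e1 (edgeR adjusted p = 0.0339) and Cyp1a1 (edgeR adjusted p = 0.0381). Without Fzd1lacZ P10 replicate 2, the replicate of that group with few Gm10800 counts, 18 members passed, with the share of all genes not given here.

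Genes that work with these enzymes also changed after birth. Of 7 electron transfer partners of P450, 4 rose and 2 fell, with cytochrome b5 (Cyb5a, 1.26), Pgrmc1 (0.86) and P450 reductase (Por, 0.82) higher and Cyb5b (-0.44) and Cyb5r3 (-0.40) lower at P14. Flavin monooxygenases, which oxygenate nitrogen and sulfur, rose in 5 of 6 tested genes, among them Fmo5 (2.20) and Fmo6 (1.82). Of 17 esterases and epoxide hydrolases 11 rose, among them Ces2a (3.10) and Ces1c (2.66), and Ces2g (-1.38) and Ces2b (-0.98) fell. Of 28 aldehyde, alcohol and carbonyl enzymes 15 rose and 4 fell, with Akr1c19 (1.49) highest and Aldh3b2 (-2.11) lowest. Of 21 transporters 10 rose and none fell, led by the conjugate exporter Abcc2 (2.59). Genes for cofactor supply in conjugation went both ways, with 4 of 9 higher and 5 lower (median -0.31). Of 8 haem synthesis genes 2 rose and 1 fell, and their median of 0.06 was that of all genes. These log2 fold changes are P14 against P0 over the 3 genotypes, where 31.6% and 27.2% of all genes were called higher and lower.

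Of 10 genes for sensors of foreign chemicals, 2 rose and 4 fell. Nr1i3 (1.56) and Nfe2l2 (0.40) were higher, and Nr1i2 (-1.14), Ahr (-0.57) and Rxra (-0.55) were among the lower ones. In Fzd1lacZ against control, none of these sensors and none of the esterases was called. Flavin monooxygenases were lower in 4 of 6 genes (Fmo2 -0.50 and Fmo6 -0.40 among them) and aldehyde and alcohol enzymes in 5 of 28 (Adh1 -0.69, Adh7 -0.56 and Aldh3a1 -0.52 among them), with none higher. Of 9 targets of the aryl hydrocarbon receptor and NRF2 outside the members, 3 were lower (Slc7a11 -0.61, Aldh3a1 -0.52, Gclm -0.29) and Nqo1 was higher (0.54).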

How the data were processed

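Total RNA libraries of mouse olfactory epithelium were made after ribosomal RNA removal with a stranded kit, per the labels' protocols. Reads were made with bcl2fastq 2.18 and aligned to mm10 with STAR 2.6.1c, and the authors deposited whole read counts per gene, per the submitters' processing notes. The deposited TPM values come from RSEM, per the same notes. Which annotation was used, and whether counting used strand, is not given in the sources used here, so overlapping and antisense genes cannot be separated.

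Counts were tested in R 4.3.3 with edgeR 4.0.16: filterByExpr left 22144 genes, TMM scaling, a quasi-likelihood fit with trended dispersion and 1 term per group over 72 libraries, and Benjamini-Hochberg adjustment over all genes, with a threshold of 0.05. A member called higher or lower passed it. The script was tested on simulated independent counts with 1 mean profile. These hold no title series and no varying Gm10800 share, so that test does not bear on those limits. Alternatives used DESeq2 1.42.0, limma 3.58.1 on log2(TPM + 1) and log2(TPM + 0.1), other filters, covariates and the loss of each of the 72 libraries.

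The members, gene lists and tests were chosen with earlier results of these data known. Named genes are the 3 highest of each family and, per averaged comparison, up to 8 called members in each direction by fold change; elsewhere up to 4 called members by smallest p, and up to 3 called genes per direction of each other list. For pairs of libraries within a group, the median chi-square of the counts was 1.12 to 13.2 times that of 1 library split in 2. No libraries were merged. These ratios do not show whether libraries came from separate animals. Promoters are RefSeq windows matched by symbol (40 of 45 members); protein sequences were not used here.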

Additional observations from a re-analysis of the deposited data

Results flagged for a closer look

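In 5 cases a member's genotype effect differed between ages or between DOX conditions by a direct test. The P14 against P0 change of Cyp2e1 was smaller in Fzd1lacZ than in control by a log2 difference of -2.54, and that of Sult6b1 by -2.26. The ectopicFzd1 against control difference of Sult1d1 differed between the libraries without and with DOX by -0.66 on the log2 scale. It cannot be told apart from the series of title numbers, which these genotypes do not share with DOX from P3 on. The knockout effect differed among the 5 ages for Cyp2e1 (edgeR F test, adjusted p = 0.0339) and for Cyp1a1 (edgeR F test, adjusted p = 0.0381).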

How the results depend on the processing

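Counts of called members are compared here with those of the edgeR fit given above, without the shares of all genes. The P14 against P0 count of 39 stayed between 29 and 40 in all settings run except the fit of the Fzd1lacZ libraries with the series of title numbers as a covariate (3), in which Cyp2s1 (0.13), Cyp2b10 (1.21), Gsto1 (1.05) and Cyp4f16 (0.07) had the opposite sign. In the 4 steps between ages the count of 41 was 26 with limma on log2(TPM + 0.1), and within the 3 genotypes the count of 90 was 46 and 41 with limma on log2(TPM + 1) and log2(TPM + 0.1). The differences between these changes gave 2 members in edgeR, 0 with limma at either pseudocount, 6 with no filter, 6 without the libraries above 25% in the Gm10800 family and 4 with that share as a covariate. For ectopicFzd1 without DOX the count of 4 became 1 with limma at either pseudocount, 7 without those libraries, 8 with the share, 7 with the title series and 9 in a fit of only its own groups. For Fzd1lacZ the count of 7 became 11 with DESeq2, 23 and 25 with limma at pseudocounts of 1 and 0.1, 4 with the Gm10800 family taken out and 4 within the title series shared at P14, where Gstz1 had the opposite sign (0.01). For ectopicFzd1 with DOX the count of 0 became 1 without the libraries above 25% and 1 without P3, and the DOX difference rose from 1 to 2 without the libraries above 25%. For DOX in control the count of 0 became 1 with DESeq2, with its size factors, with a filter on a mean CPM of 1, without the libraries above 25% and with their share, 2 with no filter and 5 in a fit of only its own groups. At single ages the count of 11 became 20 with DESeq2, 21 with no filter, 38 and 41 with limma, 24 without the libraries above 25%, 17 with the share and 26 in fits of only the groups compared. In the F tests the count of 2 became 7 with DESeq2, 6 with its size factors, 10 with no filter, 20 and 32 with limma, 1 with the Gm10800 family taken out, 4 without the 2 libraries whose Fzd1 goes against the label, 14 without the libraries above 25% and 7 with the share. The causes were not tested. Leaving out 1 library at a time (72 fits) gave 35 to 38 members for P14 against P0, 32 to 34 with DOX, 32 to 51 in the steps, 81 to 92 within genotypes, 0 to 4 in the differences of change (4 without Fzd1lacZ P14 replicate 1), 3 to 4 for ectopicFzd1, 3 to 11 for Fzd1lacZ, 0 to 0 for ectopicFzd1 with DOX, 1 to 1 for the DOX difference, 0 to 1 for DOX in control (1 without control DOX P3 replicate 3), 8 to 26 at single ages and 0 to 18 in the F tests (18 without Fzd1lacZ P10 replicate 2). Where 1 of 2 libraries was left out, the other was assumed to vary like the other groups. Depth limits most the members with few counts, such as Ugt2a1 (median 1 per library) and Gstm6 (10). No paired analysis was possible because the labels give no replicate numbers shared between groups.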

Other observations

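Among the other conjugation genes, 10 of 19 further glutathione genes were higher at P14 than at P0 and 4 lower, with Gpx3 (log2 fold change 2.90), Gpx6 (2.45) and Mgst3 (1.44) highest and Ggt6 (-1.79), Hpgds (-0.71) and Gpx1 (-0.65) lowest. Of 8 methyl- and acetyltransferase genes 4 rose, with Inmt (1.76), Nat8 (1.56) and Hnmt (1.29) among them. Gland and duct markers split: Obp2b (6.34), Lcn3 (3.82) and Dcpp3 (2.61) were higher at P14, while Bpifb9b (-4.49), Bpifb9a (-4.18) and Sox9 (-1.59) were lower. All 7 tested markers of mature sensory neurons rose (median 1.49), and 4 of 6 markers of basal and progenitor cells fell.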
